A study of Mus musculus with 2 samples.

Results

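The distal Dlk1-Dio3 miRNA cluster, also called the miR-379/miR-410 or Mirg cluster, was followed gene by gene in small RNA from embryonic mouse hindbrain. Its members were the rows of the deposited count tables whose Ensembl gene is annotated by GENCODE M21 as a miRNA gene on chromosome 12 between positions 109709000 and 109750000 (GRCm38, the same assembly as mm10), on either strand. This gave 38 of the 1973 miRNA genes in the tables. The 2 libraries form 1 group, hindbrain of B6NCrl embryos of both sexes at embryonic day 12.5, with replicate 1 pooled from 120 and replicate 2 from 88 embryos. No genotype, treatment or second tissue was compared, so the values describe the level of each hairpin in this tissue and its spread between the pools. Levels are counts per 1000000 (CPM) of the reads that fell in sense on any miRNA gene, of which replicate 1 had 2764276 and replicate 2 had 3946444. Where no read was seen, the level can still be as high as 1.09 CPM (replicate 1) or 0.760 CPM (replicate 2). These limits, like the intervals below, cover counting error only.

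A miRNA is cut from a hairpin precursor, and the bases numbered 2 to 8 of the mature strand, the seed, pair with target messenger RNAs. The Dlk1-Dio3 domain is imprinted: its noncoding RNAs, including Meg3, Rian and Mirg, are made from the maternal chromosome, and the distal hairpins are cut from long transcripts of that strand. In neurons the cluster is known to be switched on by activity through the transcription factor Mef2, and several of its miRNAs act in dendrites and synapses.

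The mature sequences below come from RefSeq on GRCm38.p6, which has an entry for 37 of the 38 hairpins. They are shown because some hairpins of the cluster are alike in sequence. Each count also sums both arms of a hairpin, so the arm that gave the reads is not known. Capitals mark the seed, and all sequences run 5′ to 3′. The first set belongs to the 6 hairpins with the highest levels, of which Mir487b has an entry for its 5p arm only.
mmu-miR-487b-5p: uGGUUAUCccuguccucuucg
mmu-miR-409-5p: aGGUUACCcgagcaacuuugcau
mmu-miR-409-3p: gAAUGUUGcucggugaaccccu
mmu-miR-369-5p: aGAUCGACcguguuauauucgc
mmu-miR-369-3p: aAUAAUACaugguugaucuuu
mmu-miR-411-5p: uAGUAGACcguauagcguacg
mmu-miR-411-3p: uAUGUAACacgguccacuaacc
mmu-miR-541-5p: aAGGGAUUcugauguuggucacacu
mmu-miR-541-3p: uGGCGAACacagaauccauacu
mmu-miR-382-5p: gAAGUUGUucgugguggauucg
mmu-miR-382-3p: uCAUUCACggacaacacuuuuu

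Some arms with RefSeq entries share the seed of another in the cluster, which puts arms of hairpins of unlike level into the same predicted target group. These are miR-379-5p with miR-1193-5p, miR-379-3p with miR-411-3p above, miR-758-5p with miR-1197-5p, miR-494-5p with miR-410-5p, miR-496a-5p with miR-453, and miR-376c-5p with miR-376b-5p, beside miR-299a-3p with miR-299b-3p.
mmu-miR-379-5p: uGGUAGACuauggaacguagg
mmu-miR-1193-5p: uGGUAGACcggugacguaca
mmu-miR-379-3p: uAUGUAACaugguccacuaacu
mmu-miR-758-5p: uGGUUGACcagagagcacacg
mmu-miR-1197-5p: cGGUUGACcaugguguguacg
mmu-miR-494-5p: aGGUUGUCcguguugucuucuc
mmu-miR-410-5p: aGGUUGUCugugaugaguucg
mmu-miR-496a-5p: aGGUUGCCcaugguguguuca
mmu-miR-453: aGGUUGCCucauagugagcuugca
mmu-miR-376c-5p: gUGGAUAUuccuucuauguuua
mmu-miR-376b-5p: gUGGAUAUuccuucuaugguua

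Over the 69 mature entries of the 37 hairpins there were 64 distinct seeds. The arms miR-487b-3p, miR-376c-3p, miR-485-5p and miR-539-3p have no entry in the RefSeq table used. Any seed that these arms share is missing from these counts and from the pairs above. Of the 69 entries 12 shared a seed with another entry of the window. A further 10 shared it with an entry elsewhere in the RefSeq table, and 47 shared it with no entry. The hairpins outside the window that carry a seed of the cluster include the neighbouring imprinted Mir370, whose 5p arm has the seed of miR-1193-3p. None of the 69 sequences occurs whole in the hairpin of another miRNA gene, although 5 hairpins (Mir487b, Mir376c, Mir411, Mir758 and Mir299a) have a run of 20 bases in common with another hairpin. Reads that match several genome positions are counted in a separate line of the tables and not per gene.

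The hairpins of the cluster held 5.65% of the assigned counts in replicate 1, with a Clopper-Pearson 95% interval of 5.63% to 5.68%. In replicate 2 they held 5.95%, with an interval of 5.92% to 5.97%, giving a mean of 5.80% ± 0.208 (SD, n = 2). Of the 38 members, 34 were detected, meaning 10 counts or more in each library, and 30 of these were detected on the strand of their own row. Of all 1973 genes, 371 were detected on their own strand (18.8%). At a mean of 1000 CPM or more were 13 members, 9 of them on the strand of their own row, against 105 of 1973 genes over the table on their own strand (5.32%). A further 15 lay between 100 and 1000 CPM and 10 below 100 CPM. Mir654 and Mir453 had no count in either library, and Gm27379 had 0 and 2 counts.

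Part of this signal is found only on the strand opposite to the annotated row. The tables have no row for Mir409, Mir376a, Mir380 and Mir299a, whose plus-strand hairpins lie over the minus-strand rows Gm24321, Gm25252, Gm25750 and Mir299b. The reads opposite to these 4 rows were taken as those of the plus-strand hairpins, as the positions imply. Only for Mir299b does the ID version differ from GENCODE M21, so its strand in the deposited counts is not sure. The reads opposite to the 4 rows held 1.22% of the assigned counts in each library. They made up 49.99% of all opposite-strand counts of the whole table in replicate 1 and 50.8% in replicate 2. On their own strand Gm24321, Gm25252 and Gm25750 had 0 counts in both libraries. At the 34 plus-strand rows of the cluster no read fell on the opposite strand in either library, so the reads of the locus came from the plus strand, apart from those at Mir299b given in the closing section. By the strand of the gene alone the cluster share was 4.58% ± 0.206. Mir376b has no row and no overlapping row and was not analysed here. The minus-strand Gm44322 has no row either, and the opposite-strand column of Mir539, which lies within it, had 0 counts in both libraries.

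Mir487b was the most abundant hairpin of the cluster. It lies on chromosome 12 from 109727333 to 109727414 and had 11665 CPM in replicate 1 and 12278 CPM in replicate 2 (11971 ± 434, SD, n = 2). By the reads counted per gene this placed it at rank 17 among the miRNA genes and gave it 20.6% of the cluster's counts in each library. The rank leaves out reads that match several positions and adds opposite-strand reads for hairpins of the cluster only. The hairpin of Mir487b has a run of 20 bases in common with Mir376b.

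Mir409 and Mir369, close neighbours at the far end of the cluster, came next. Mir409 (109743158 to 109743236) had 7670 and 7007 CPM in replicates 1 and 2, or 7339 ± 469. Mir369 (109743418 to 109743496) had 6126 and 6775 CPM, or 6450 ± 459. The 3p arm of miR-369 is known for acting on AU-rich messenger RNAs, and miR-369-3p, miR-496 and miR-543 are known to restrain the adhesion molecule N-cadherin during neurogenesis. The lead of Mir487b over Mir409 was 1.52-fold and 1.75-fold in replicates 1 and 2, and the ranges of the first 5 hairpins over the libraries did not overlap.

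Mir411 and Mir379, the first hairpins of the cluster, share the seed of their 3p arms and were both high. Mir411 (109710175 to 109710256) had 4889 and 5830 CPM (5360 ± 665), and Mir379 (109709060 to 109709125) had 2715 and 2927 CPM (2821 ± 150). The level of Mir411 was 1.80 times that of Mir379 in replicate 1 and 1.99 times in replicate 2. Mir1193, which has the 5p seed of Mir379, had 1020 and 975 CPM, so Mir379 exceeded it by 2.66-fold and 3.003-fold.

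Mir541 and Mir382 lay between these in level. Mir541 (109742409 to 109742498) had 4031 and 4249 CPM (4140 ± 154). Mir382 (109733771 to 109733846) had 4169 and 3714 CPM (3942 ± 322). Their ranges over the libraries overlapped, and Mir382 was the higher in replicate 1 and Mir541 in replicate 2, so they cannot be ordered.

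The next band, from 2476 down to 1127 CPM, held Mir381, the miR-376 hairpin Mir376a, the dendritic miRNA Mir134 and 3 others. Mir381 had 2348 and 2603 CPM and Mir376a had 2227 and 2632 CPM, with overlapping ranges. Mir134, which is known to limit the size of dendritic spines, had 1234 and 1590 CPM. Mir380 had 1128 and 1484 CPM and overlapped Mir134. Mir154 was the closest between the libraries of all hairpins at this level, at 1153 and 1138 CPM. Mir299a had 1161 and 1093 CPM and could not be separated from Mir154. Members of the miR-376 family are known in brain as substrates of A-to-I editing, in which an edited read differs from the genome. How such reads were treated is not given in the sources used here.

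Below these came Mir1193 and Mir323, on either side of 1000 CPM in the libraries. Mir323 had 1111 and 882 CPM, and its range took in that of Mir1193. Mir300 had 677 and 805 CPM and Mir543 had 643 and 682 CPM. Mir494 had 388 and 353 CPM, and Mir376c, the second measured miR-376 hairpin, had 343 and 398 CPM. Mir376a exceeded Mir376c by 6.50-fold and 6.62-fold in the 2 libraries. Mir485, a miRNA that acts on synaptic vesicle protein and synapse density, had 311 and 367 CPM, and Mir667 had 260 and 326 CPM. Mir494, Mir376c, Mir485 and Mir667 each overlapped the next in this order.

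The last hairpins above 100 CPM were led by Mir496a at 158 and 227 CPM. Mir329, a target of Mef2-driven induction in neurons, had 137 and 159 CPM, and Mir679 had 158 and 121 CPM. Mir410, the hairpin after which the cluster is named together with Mir379, had 119 and 132 CPM. Mir377 had 117 and 129 CPM, Mir495 had 98.8 and 136 CPM and Mir412 had 112 and 108 CPM. From Mir496a to Mir412 each hairpin overlapped the next. In all, 15 of the 37 steps in the order of the 38 hairpins, and 7 of the 12 steps among those at 1000 CPM or more, were larger than the spread between the libraries.

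The detected hairpins under 100 CPM were Mir668, Mir666, Mir758, Mir539, Mir3072 and Mir544, from 87.8 down to 8.27 CPM on average. Below them Mir1197 had 5 and 8 counts, 1.81 and 2.03 CPM. Mir758 and Mir1197, which share a 5p seed, thus both lay low in the cluster. Of the 2 hairpins with the seed of miR-496a-5p and miR-453, only Mir496a had counts. Its arms were not told apart, so reads with that seed were not shown.

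**Figure D1:**
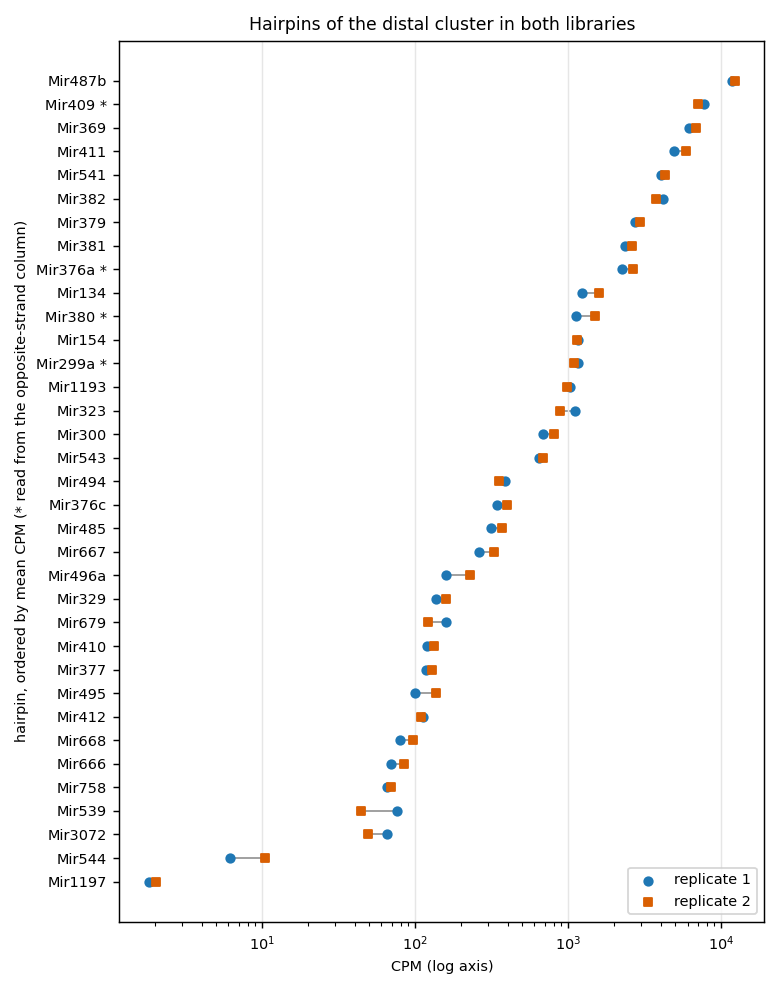
CPM (log axis) of the 35 cluster hairpins with counts in both libraries, ordered by mean, with a circle for replicate 1 and a square for replicate 2 joined by a line; an asterisk marks hairpins read from the opposite-strand column. Mir487b leads at 11665 and 12278 CPM and Mir1197 is lowest at 1.81 and 2.03 CPM, while the symbols of a hairpin mostly lie closer together than the whole ladder of levels.

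Few hairpins gave most of the cluster's reads. The highest, Mir487b, held 20.6% of them, the first 3 held 44.4% ± 0.865, the first 5 held 60.8% ± 0.0409 and the first 10 held 83.3% ± 0.0920. Between Mir487b and Mir544, the lowest of the detected hairpins, the mean level differed 1448-fold. This is a range of small RNA reads per hairpin, and transcription of the locus was not measured.

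Position along the 38.9 kb from Mir379 to Mir3072 did not order the levels. Over the 36 hairpins with counts in at least 1 library, Spearman's rho between mean CPM and distance from Mir379 was -0.05. It was -0.21 with GC content, -0.20 with hairpin length and 0.15 with the folding energy predicted by RNAfold. Pearson's r with log2 CPM was 0.03 for position, -0.14 for GC content, -0.46 for length and 0.17 for folding energy. The value for length thus depends on the measure. Gm27379 (123 bases) and Mir1197 (120 bases) are among the longest and had the lowest levels of these hairpins, and r without them was not computed. Folding energy per base gave the opposite sign, with a rho of -0.05 and an r of -0.20. These correlations are descriptions across hairpins of the same libraries, which are not independent of each other. The medians over these hairpins were 79 bases of length, 44.4% GC and a folding energy of -33.7 kcal/mol, and the median gap between adjacent members was 590 bases.

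High and low hairpins stood side by side. Among the 31 pairs of adjacent hairpins that had counts in both libraries, the median difference was 4.97-fold in replicate 1 and 5.004-fold in replicate 2, and 11 pairs differed more than 10-fold in both. The same member of the pair was the higher in both libraries in 30 of the 31 pairs, with Mir299a and Mir380 as the exception. The clearest case is the end of the cluster. Mir412 lies 52 bases after Mir409 and 49 bases before Mir369, yet Mir409 exceeded it 68.4-fold and 64.9-fold and Mir369 exceeded it 54.6-fold and 62.8-fold in replicates 1 and 2. Mir410, 218 bases after Mir369, was lower than Mir369 by 51.5-fold and 51.2-fold. Mir1197 lies 71 bases before Mir323 and was lower by 614-fold and 435-fold, resting on its 5 and 8 counts. Mir539 follows Mir487b after 714 bases and was lower by 154-fold and 277-fold.

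**Figure D2:**
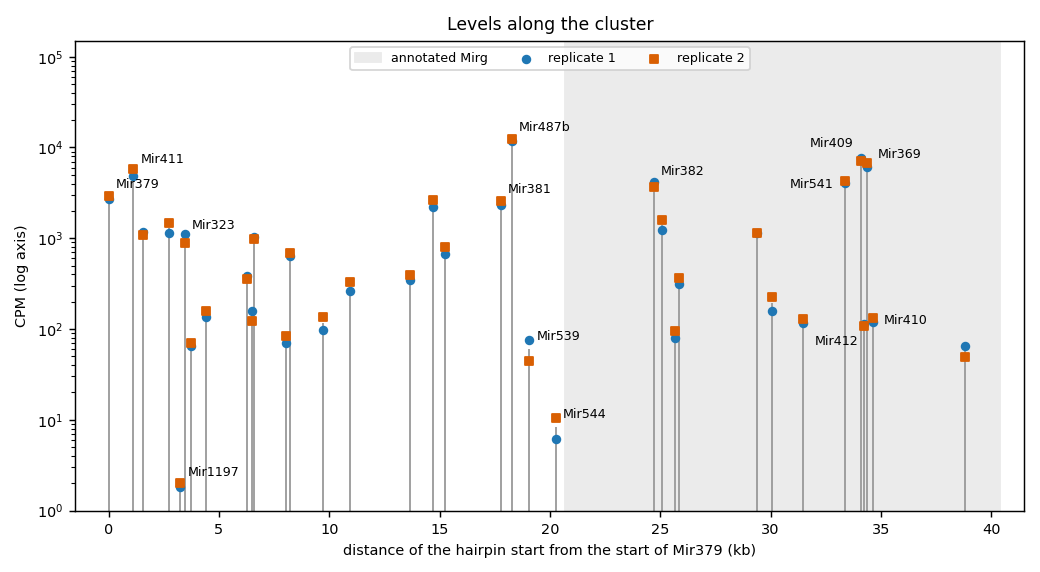
CPM (log axis) of the 35 hairpins with counts in both libraries against the distance of the hairpin start from the start of Mir379 in kb, with circles for replicate 1, squares for replicate 2, stems to the mean and grey shading over the annotated Mirg gene. Hairpins of high and low level alternate, as with Mir412 at 112 and 108 CPM between Mir409 and Mir369.

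The annotated noncoding gene Mirg covers only the later hairpins. Mirg runs from 109729764 to 109749460 on the plus strand, so 14 hairpins lie within it and 24 lie before its start. Those within it held 2.53% and 2.56% of the assigned counts in replicates 1 and 2, and those before it 3.12% and 3.39%, a ratio of 0.813 and 0.755. Within Mirg, Mir134, Mir485, Mir377 and Mir410 lie wholly in an exon of at least 1 transcript. Mir409, Mir541, Mir154, Mir496a and Mir453 lie in introns, and Mir369, Mir382, Mir412, Mir668 and Mir3072 reach into an exon in part. The exonic 4 had a median of 232 CPM, the intronic 5 a median of 1145 CPM and the partly exonic 5 a median of 110 CPM. Their ranges, of 123 to 1412, 0 to 7339 and 56.9 to 6450 CPM, overlap widely.

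Some of the hairpins resemble each other in sequence. Over the 741 pairs among the 38 members and Mir376b, global alignment gave a median identity of 49.5%, and 11 pairs reached 70%. Hairpins outside the cluster were not aligned, so whether this median is above that of unrelated hairpins was not tested. Mir376b and Mir376c were the most alike at 80.7%, followed by Mir411 and Mir758 at 73.8%, Mir300 and Mir381 at 73.8% and Mir382 and Mir543 at 73.4%. The levels within such pairs lay far apart in some and closer in others. Mir411 had 5360 ± 665 CPM against 67.6 ± 2.97 CPM for Mir758, and Mir381 exceeded Mir300 by 3.47-fold and 3.23-fold. Mir379 and Mir380, at 71.2% identity, had 2821 ± 150 and 1306 ± 252 CPM. The letters GGUUNNCC, in which N is any base, occur in 13 of the 38 hairpins (34.2%) and in 20 of 1856 other miRNA hairpins of the tables (1.08%). The letters UACUUG occur in 10 of the 38 hairpins (26.3%) against 35 of 1856 (1.89%). Both sets of letters were searched on the strand of the hairpin only and were picked from the members' own sequences, 2 of 5 patterns tried, so the difference in shares follows in part from the choice and is no test. Neither set of letters occurs in the 20 proximal hairpins.

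All hairpins of the cluster with a mean of 10 counts or more differed by less than 2-fold between the libraries. Each of the 397 genes with a mean of 10 counts or more was compared by an exact binomial test (two-sided, Benjamini-Hochberg adjusted over all 397). With 2-fold as the smallest difference and 0.05 as the limit of the adjusted p, 14 genes were called (3.53%). None of the 34 tested members was among them, since none reached 2-fold, while at an unadjusted exact p under 0.05 with no minimum fold there were 26. Without a minimum fold 25 members passed the adjusted threshold, 17 higher and 8 lower in replicate 2, against 207 of 397 over the table (52.1%), of which 25.4% of the genes tested were higher and 26.7% lower. The test counts reads of these 2 libraries as independent and compares the libraries, not conditions. The members' median log2 ratio of replicate 2 over replicate 1 was 0.14 and their median absolute log2 ratio 0.22, beside -0.04 and 0.24 over all genes tested. Within 1.5-fold were 32 of the 34 members (94.1%), beside 84.6% of all genes tested. These shares were not matched for level.

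Among single members the largest difference past the threshold was in Mir539, which was named for it. Its 210 counts in replicate 1 made 76.0 CPM and its 175 counts in replicate 2 made 44.3 CPM, a log2 ratio of -0.78 at an adjusted exact binomial p of 5.12e-07. Mir544 had 6.15 and 10.4 CPM, from 17 and 41 counts, with a log2 ratio of 0.73 that did not pass (adjusted exact binomial p = 0.135). Of the hairpins at 1000 CPM or more, Mir380 and Mir134 were the farthest apart, with log2 ratios of 0.40 and 0.37, and Mir154 did not pass at all (log2 ratio -0.02, adjusted exact binomial p = 0.667). Of 10 marker miRNAs of other cells, summing to 51992 and 47081 CPM in replicates 1 and 2 with none at 0, 3 were called. Mir206 of skeletal muscle was higher in replicate 2 (146 and 579 CPM), and Mir200c (1959 and 746 CPM) and Mir429 (2950 and 1362 CPM) of epithelium were lower. None of the 5 hindbrain and neural markers was called, and they summed to 47291 and 45766 CPM. Mir10a (26347 and 25880 CPM) and Mir10b (15998 and 14531 CPM) had the lower value in replicate 2. Mir137 (3263 and 3343 CPM), Mir153 (1316 and 1614 CPM) and Mir9-3 (367 and 398 CPM) had the higher value there. All marker values leave out reads that match several genome positions, so a marker made from several genes can read low. The part of other cells in the cluster's values was not tested. In bulk tissue, fewer cells with a miRNA and less of it per cell cannot be told apart.

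**Figure D3:**
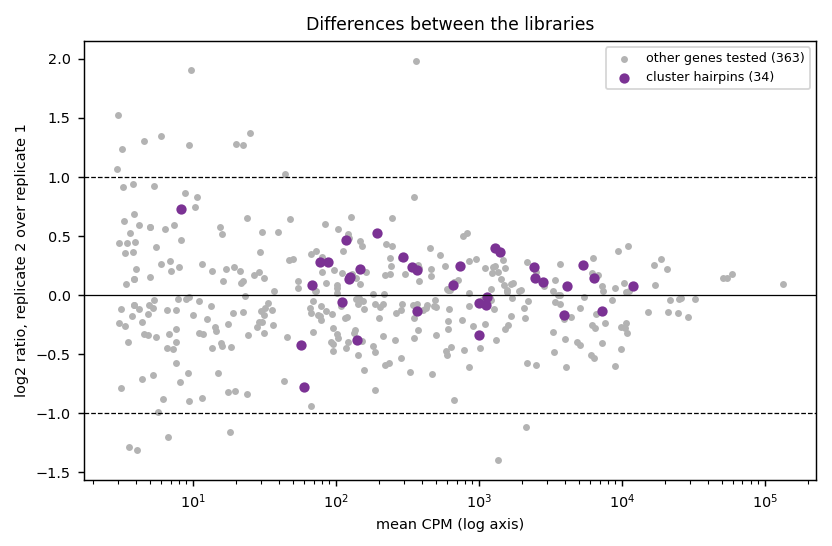
Log2 ratio of replicate 2 over replicate 1 against mean CPM (log axis) for the 34 tested cluster hairpins in purple and the 363 other genes tested in grey, with dashed lines at 2-fold. All purple points lie between the dashed lines, the lowest being Mir539 at -0.78.

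The proximal miRNAs of the same imprinted domain, from Meg3 up to the start of the window, were the nearest group for comparison. Of their 20 rows 14 were detected, and they held 1.88% of the assigned counts in replicate 1 and 2.02% in replicate 2, so the distal hairpins held 3.01 and 2.95 times as many. With 2 libraries an exact two-sided sign-flip test cannot give a p below 0.5, and no test was made. The median hairpin differed less, at 327 and 360 CPM over the 38 distal rows against 273 and 318 CPM over the 20 proximal rows in replicates 1 and 2. Those above 1000 CPM were Mir127 (6448 and 7264 CPM), which lies antisense to the paternally expressed gene Rtl1, Mir431 (5491 and 5439 CPM), Mir434 (1197 and 1419 CPM), Mir337 (1144 and 1352 CPM) and Mir433 (1076 and 1043 CPM). In level Mir127 thus overlapped Mir409 and Mir369 but not Mir487b. None of the 14 proximal genes tested was called between the libraries, and 6 of them were higher and 2 lower in replicate 2 at the adjusted threshold without a minimum fold. The others at 100 CPM or more were Mir341 (769 and 939 CPM), Mir370 (822 and 710 CPM), Mir540 (599 and 618 CPM), Mir665 (429 and 502 CPM), Mir770 (353 and 334 CPM), Mir3071 (192 and 302 CPM), Mir673 (121 and 137 CPM) and Mir493 (113 and 90.0 CPM). At Mir3071 the annotation has Mir136 on the other strand. The ID version of the Mir3071 row differs from GENCODE M21, so its strand in the deposited counts is not sure. It had 532 and 1193 counts on its own strand and 1 and 0 on the other. Whether these reads belong to Mir3071 or to Mir136 was not tested.

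**Figure D4:**
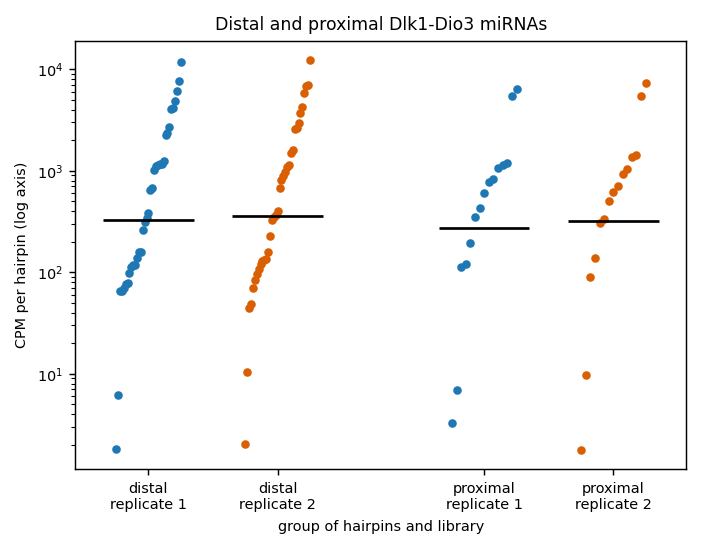
CPM per hairpin (log axis) for the distal and the proximal Dlk1-Dio3 miRNAs in each library, with each point a hairpin that had counts in both libraries, sorted by level within its column, and a line at the median over all rows including those without counts. The medians are 327 and 360 CPM for the distal and 273 and 318 CPM for the proximal rows, and the distal columns reach the higher maximum.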

How the data were processed

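Small RNA was sequenced in both libraries. The authors' tables hold raw counts per miRNA gene on mm10 with the GENCODE M4 annotation, per the README text deposited with the tables; the aligner and its settings were not stated in the sources used here. The column taken as the strand of the gene was inferred from layout and totals. Rows naming no gene were left out: reads matching several positions were 32.7% and 33.4% of 5947846 and 8656439 reads. Members were matched by ID without version to GENCODE M21 (25 of 38 versions were the same), and positions and strands are those of M21. CPM used own-strand counts of all gene rows, also as denominator for the 4 opposite-strand hairpins. The log2 ratios between the libraries added 0.5 to each count, while ratios and folds between hairpins or groups used the counts as they were. Hairpin identity came from Biopython 1.88 and folding from ViennaRNA 2.7.2. Python 3.11.15, SciPy 1.17.1, edgeR 4.0.16 (TMM) and DESeq2 1.42.0 (size factors) were used, and the test was checked on simulated data. The simulated counts varied by counting error only. That check cannot show how the test does on pools that differ beyond counting error. The p-values set the difference between these libraries against counting error alone and do not measure the spread between pools. Values are printed for members with a mean of at least 100 CPM, and other named members were chosen after their values were seen. Members, lists and rules were chosen with earlier results of these data known. Alternatives were strand, denominator, shared sequence, leading gene, scaling, count minimum, pseudocount, fold and each library left out.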

Additional observations from a re-analysis of the deposited data

Results flagged for a closer look

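Reads on the minus strand appeared at 1 locus of the cluster. Mir299b, annotated on the minus strand within Mir299a, had 6 counts in replicate 1 and 8 counts in replicate 2 on its own strand, above the 3 counts that a count of 0 allows, while the other 3 minus-strand rows had none. This is 2.17 and 2.03 CPM, or 0.187% and 0.185% of the reads at the locus. The mature sequences of the locus overlap, since the 21 bases of miR-299b-5p lie whole within the 22 bases of miR-299a-5p, and the 18 bases of miR-299b-3p within the 22 bases of miR-299a-3p. The ID version of the Mir299b row differs from GENCODE M21, so its strand in the deposited counts is not sure. From which strand the reads counted for Mir299b were transcribed was not tested.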

How the results depend on the processing

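The cluster share of 5.80% was 4.58% on the strand of the gene alone, 3.91% without the 5 hairpins that share 20 bases with another, 4.60% without Mir487b and 6.70% with the most abundant gene out of the denominator; with opposite-strand counts in the denominator it was 5.66%, and it ranged from 5.65% to 5.95% with a library left out. The ratio of distal to proximal counts, 2.98, was 2.35 on the strand of the gene alone, 2.01 without genes sharing 20 bases and 3.65 without the leading hairpin of each group, and ranged from 2.95 to 3.01 with a library left out. These shifts follow from the hairpins removed. Between 30 and 35 members were detected under the other minimums and strand choice. Members called between the libraries stayed at 0 under TMM, DESeq2 size factors, other pseudocounts, other count minimums and the strand of the gene alone. No tested member came nearer to 2-fold than Mir539 at a log2 ratio of -0.78, so the scalings and pseudocounts could hardly bring one to it. The count was 25 with no minimum fold and 1, Mir539, with a minimum of 1.5-fold. The number of separated steps in the order was 16 with TMM and 15 with DESeq2 size factors, beside 15. Each of these 2 scalings applies a single factor per library and moves the libraries in opposite directions, so the means could change little. Under them the first 9 hairpins kept their order and the means of the 28 named members moved by at most 0.346%. Leaving out a library moved them more, with Mir496a between 158 and 227 CPM, and without replicate 2 Mir382 (4169 CPM) passed Mir541 (4031 CPM). Counting error limits Mir544, Mir1197 and Gm27379, which have under 50 counts in a library.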
